A study of Mus musculus with 4 samples.

Results

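The genes described here are 46 mouse genes of the cell cycle and of DNA replication, of 21938 protein-coding genes, at which chromatin accessibility was read from the ATAC-seq peaks of 4 hippocampal libraries. The genes were taken from a list of names, and the rule that chose them uses no measured value, although earlier results of these data were known. They fall into 14 genes of origin licensing and the replication fork, 9 cyclins, kinases and the phosphatase of G1 and G1/S, 11 E2F factors and pocket proteins, and 12 genes of G2 and mitosis. A gene had a promoter peak when the summit of a peak lay within 2000 bp of one of its transcription start sites (TSSs) in the basic set of GENCODE, release M21, on mm10 (GRCm38), which leaves out some of the shorter transcripts. All 46 genes could be placed, and all 46 have a CpG island (CGI) at the promoter, a property of 12939 of the 21938 genes under the definition used here (a 500-bp window with at least 55% GC and an observed over expected CpG ratio of at least 0.65, within 2000 bp of a TSS).

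A dividing cell first loads the MCM helicase onto replication origins in G1, with the help of the origin recognition complex, CDC6 and CDT1, and fires these origins in S phase. Cyclin D with CDK4 or CDK6, and then cyclin E with CDK2, phosphorylate the pocket proteins RB1, RBL1 and RBL2 and so free the E2F factors that transcribe replication genes. Genes of G2 and mitosis are transcribed later in the cycle and often carry CCAAT boxes and a cell cycle homology region (CHR) at their promoters, at which the DREAM and MMB complexes act. In the newborn hippocampus progenitors of the dentate gyrus still divide, while most pyramidal neurons have left the cycle. KDM2B binds unmethylated CpG islands by its CxxC zinc finger and brings a variant Polycomb repressive complex, PRC1.1, to them.

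ATAC-seq, in which the Tn5 transposase cuts accessible DNA and leaves sequencing adapters there, was performed on nuclei of hippocampi from postnatal day 0 (P0) mice, with 2 cKO and 2 Ctrl libraries. The cKO carried Kdm2bEmx1-delta-CxxC: exon 13 of Kdm2b, which encodes the CxxC zinc finger, is flanked by loxP sites and removed by Emx1-Cre, which is active in the dorsal telencephalon, so the deletion takes out the zinc finger and not the whole gene, and cells of other origin in the tissue keep it. Ctrl animals were Kdm2bfl/+ or Kdm2bfl/fl, and the labels do not tie either genotype to a library. Peak names in the deposited lists carry Kf-+ in Ctrl replicate 1 and Kf-f in Ctrl replicate 2, whose meaning is not stated, so a difference in genotype between the Ctrl libraries cannot be told apart from one between replicates. The labels name no treatment in either group. A source label of neural progenitor cells goes against the titles and the protocol, which give hippocampus and are followed here. Nothing in the labels says that replicates came from separate animals or litters, so any p-value below measures the spread between these libraries, which may be technical.

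The 4 libraries differed widely in the number of peaks. Values below are given in the order Ctrl replicate 1, Ctrl replicate 2, cKO replicate 1 and cKO replicate 2 unless stated. The lists held 46389, 7037, 21404 and 44535 peaks, from an estimated 14600000, 29600000, 19400000 and 17100000 fragments, so the list with the fewest peaks did not come from the library with the fewest fragments. Of these peaks, 5.37%, 60.6%, 14.7% and 7.25% lay at least 50% over soft-masked repeats. Ctrl replicate 2 stood apart on both counts, and the differences between the groups are therefore also given without it. Of 9 marker genes of the dorsal telencephalon and hippocampus, 9, 0, 6 and 9 had a promoter peak, and of 6 progenitor markers 5, 0, 3 and 6 had one, so the labelled tissue could be read from its markers in 3 of the 4 lists. Of 5 microglial markers 1, 0, 0 and 1 had a promoter peak, of 5 endothelial markers 1, 0, 1 and 0, of 4 erythroid markers 2, 0, 1 and 2, and of 4 markers of other organs none in any list. Of 3 markers of the choroid plexus and ciliated cells 2, 0, 2 and 2 had one (Foxj1 and Ttr), and of 4 markers each of the oligodendrocyte lineage and of interneurons 2, 0, 0 and 1. Whether cells of these types had a part in the results was not tested. The promoter of Kdm2b itself had a peak in the same 3 lists, at percentiles 68.5, 74.9 and 70.7 in Ctrl replicate 1, cKO replicate 1 and cKO replicate 2, which checks nothing about exon 13. In such bulk tissue a change in the share of cells with an accessible promoter and a change in accessibility per cell cannot be told apart.

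A promoter peak was found at 46 of the 46 genes in Ctrl replicate 1, at 8 in Ctrl replicate 2, and at 33 and 44 in cKO replicates 1 and 2. These are 100%, 17.4%, 71.7% and 95.7% of the genes. Among all protein-coding genes the shares were 58%, 8.27%, 40.3% and 55.9%, and among genes with a CpG island promoter they were 87.6%, 13.4%, 63.6% and 85.3%. The share among cell cycle genes was above that of CGI genes in 4 of 4 lists. Its exact binomial 95% interval, which covers counting error only, held the CGI value in 3 of them (7.82% to 31.4%, 56.5% to 84.0% and 85.2% to 99.5%) and lay above it in Ctrl replicate 1 (92.3% to 100%).

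**Figure D1:**
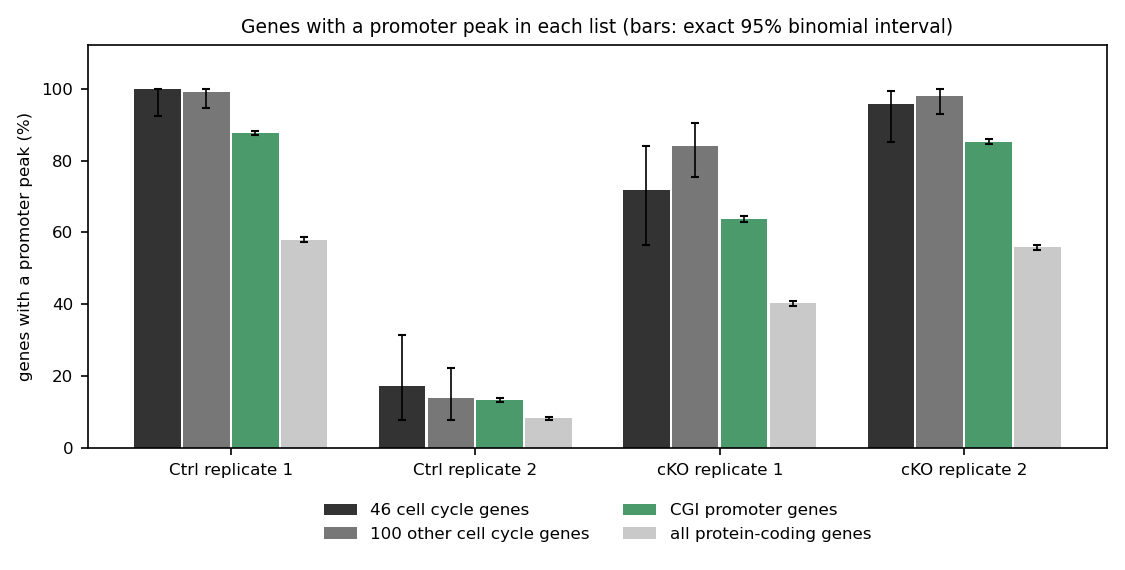
Percentage of genes with a promoter peak (vertical axis) in each of the 4 peak lists, for the 46 cell cycle genes, 100 other cell cycle genes, genes with a CGI promoter and all protein-coding genes; error bars are exact binomial 95% intervals for counting error. The 46 genes reach 100% and 95.7% in Ctrl replicate 1 and cKO replicate 2, and 17.4% in Ctrl replicate 2.

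Which genes dropped out followed the length of the list. In all 4 lists there were peaks at 8 promoters, those of Aurka, Cdc25a, Cdk4, E2f3, Mcm3, Mcm4, Mcm7 and Orc6. A further 25 genes lacked a peak only in Ctrl replicate 2. Another 11 genes, Bub1, Bub1b, Ccnb2, Ccnd1, Ccnd2, Cdc6, E2f4, E2f6, Mki67, Plk1 and Rb1, had a peak only in Ctrl replicate 1 and cKO replicate 2, the 2 longest lists. Aurkb and E2f2 had a peak only in Ctrl replicate 1. By role, cKO replicate 1 held peaks at 13 of 14 genes of licensing and the fork, 7 of 9 of G1 and G1/S, 7 of 11 E2F and pocket protein genes and 6 of 12 of G2 and mitosis, beside the 63.6% of CGI genes. In the same list, 36 of 45 further replication genes (80%) and 25 of 30 further mitotic genes (83.3%) had one.

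Strength was compared as a promoter percentile, the share of all protein-coding genes whose strongest promoter peak had a lower −log10 p in the same list, with 0 for a gene without a promoter peak. This measure has a floor for called genes, of 41.98, 91.7, 59.75 and 44.1. The floor is set by how many genes were called in each list, and is higher where fewer were called. A gene called in Ctrl replicate 2 therefore ranks high there however weak its peak. The mean percentile of the 46 genes was 76.7, 16.6, 59.5 and 72.4, against 63.4, 12.9, 51.1 and 62.4 for CGI genes and 41.2, 7.93, 32.1 and 40.2 for all protein-coding genes. Cell cycle genes thus ranked above the mean of CGI genes in each list. Among the genes that had a peak, 27 of 46, 3 of 8, 19 of 33 and 26 of 44 ranked above the median of all protein-coding genes with a peak. These are 58.7% (exact 95% interval 43.2% to 73.0%), 37.5% (8.52% to 75.5%), 57.6% (39.2% to 74.5%) and 59.1% (43.2% to 73.7%), and each interval held 50%. With a −log10 q of at least 5, only 4 of the 46 genes kept a peak in Ctrl replicate 2, and 37.5% became 75% there. CGI genes stood at 53.5%, 49.5%, 51.5% and 52.9% on the same measure.

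**Figure D2:**
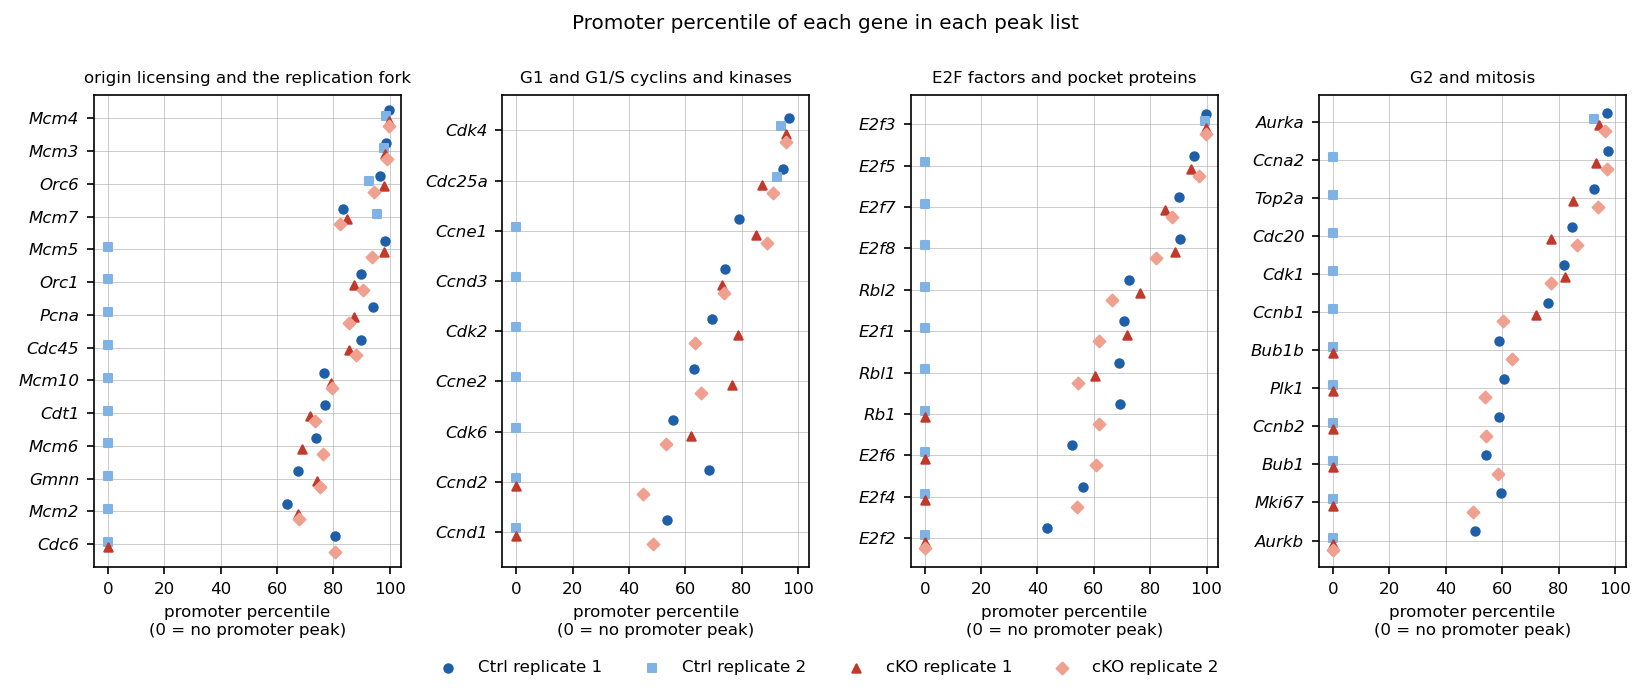
Promoter percentile (horizontal axis, 0 for no promoter peak) of each of the 46 genes in each of the 4 libraries, in 4 panels by role and sorted by mean. Ctrl replicate 2 lies at 0 for 38 of the 46 genes, and the other 3 libraries lie close together for the genes in the upper part of each panel.

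The order of the genes was similar among the 3 longer lists. Across the genes with a peak in both lists, Spearman's rho of the −log10 p was 0.929 between Ctrl replicate 1 and cKO replicate 2 (44 genes), 0.927 between Ctrl replicate 1 and cKO replicate 1 (33 genes) and 0.910 between the cKO libraries (33 genes). Over CGI genes these were 0.942, 0.877 and 0.880. These correlations are across genes, which share base composition and library and are not replicates, and are given as a description.

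Among the genes of origin licensing and the replication fork, the MCM subunits spanned nearly the whole range. Mcm4, a subunit of the MCM2 to MCM7 helicase, stood at percentiles 99.8, 98.5, 99.7 and 99.7, with 203, 25, 91 and 179 fragments over its summit. Its peak in Ctrl replicate 1 was at chr16:15637145-15638010, with the summit 71 bp upstream of the TSS. Mcm3, another subunit, stood at 98.8, 98.1, 98.4 and 99.1, with 130, 25, 62 and 131 fragments. In both genes the lowest of the 4 values was that of Ctrl replicate 2 and the groups overlapped.

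Orc6, a subunit of the origin recognition complex, stood at 96.6, 92.8, 97.9 and 94.2. Mcm7 stood at 83.4, 95.4, 85.0 and 82.2. The other 3 values lie under the floor of 91.7 in Ctrl replicate 2, so this floor alone makes the value there the highest. The depth at the summit of Mcm7 over the mean depth of the genome was 44.4, 6.06, 15.9 and 35.98, lowest in Ctrl replicate 2. The remaining fork genes lacked a peak in Ctrl replicate 2. Of these Mcm5 was the strongest, at 98.3, 97.9 and 93.7 in the 3 other lists, and Orc1, Pcna (the sliding clamp of the polymerases) and Cdc45 (a partner of the MCM helicase) lay between 85.4 and 93.95 there. Cdt1, Mcm6 and Mcm10 lay between 68.7 and 79.6. Mcm2 lay lowest among the genes found in 3 lists, at 63.5 in Ctrl replicate 1 and at 67.5 and 67.8 in the cKO libraries. Cdc6, which loads the helicase, had a peak only in Ctrl replicate 1 and cKO replicate 2, at 80.6 and 80.7, and none in cKO replicate 1, where every other gene of this group had one.

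Sequences upstream of the RefSeq start are shown for the strongest and the weakest gene of this group, by mean percentile, with an entry in the RefSeq promoter table (GRCm38.p6), to set beside each other the window of a gene called in 4 lists and that of a gene called in 2. Only the bases upstream of the RefSeq start that lie in no annotated exon are printed. Capitals mark CCAAT boxes, E2F letters (TTCCCGC or the variant TTCGCGC or the variant TTGCCGC or the variant TTGGCGC) and the CHR letters TTTGAA, on either strand. Mcm3 is at chr1:20820313-20820492 (reverse strand) and Cdc6 at chr11:98907982-98908150 (forward strand).
Mcm3: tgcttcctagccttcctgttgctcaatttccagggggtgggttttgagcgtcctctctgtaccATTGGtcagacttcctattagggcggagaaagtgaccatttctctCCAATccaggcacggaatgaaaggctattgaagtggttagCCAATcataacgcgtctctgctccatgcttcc
Cdc6: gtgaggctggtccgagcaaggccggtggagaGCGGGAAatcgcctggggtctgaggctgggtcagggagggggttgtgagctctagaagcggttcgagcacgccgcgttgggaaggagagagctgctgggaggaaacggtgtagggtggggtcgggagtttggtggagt
The Mcm3 stretch holds 3 CCAAT boxes and no E2F letters, although its full window, which runs to 50 bases after the start, holds 3 E2F matches, and its summit in Ctrl replicate 1 was 61 bp upstream of the start. The Cdc6 stretch holds 1 E2F match, the only one of its window, and no CCAAT box, and its summit was 437 bp upstream of this start, outside the printed bases. GENCODE gives Cdc6 starts at 98907801 and at 98908151, and the printed bases lie between them, upstream of the second and within the transcript of the first, to which the peak is closer.

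Of the G1 and G1/S genes, Cdk4 and Cdc25a ranked highest, and Ccnd1 and Ccnd2 lowest. Cdk4, a catalytic partner of the D cyclins, stood at percentiles 96.8, 93.8, 95.9 and 95.7, with 127, 21, 54 and 116 fragments. Cdc25a, the phosphatase that activates CDK2, stood at 94.6, 92.3, 87.1 and 91.2, with 98, 14, 31 and 76 fragments. Both had a peak in all 4 lists. Cdk6, the other partner of the D cyclins, was far lower, at 55.4, 62.1 and 53.2 in the 3 lists other than Ctrl replicate 2.

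Of the cyclins of G1 and G1/S, Ccne1, which encodes cyclin E1, was the strongest, at 79.1, 85.1 and 89.1 in Ctrl replicate 1, cKO replicate 1 and cKO replicate 2. Ccne2 stood at 63.0, 76.4 and 65.7 in the same lists, Ccnd3 at 74.2, 72.9 and 73.6 and Cdk2 at 69.3, 78.6 and 63.2. Ccnd2 and Ccnd1, the D cyclins of neural progenitors, had a peak only in Ctrl replicate 1 and cKO replicate 2. These were at 68.2 and 45.1 for Ccnd2 and at 53.3 and 48.5 for Ccnd1, and neither lay at the same place as in most of the other genes (positions are given with the summits).

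E2f3, an activator E2F, had the highest mean percentile of all 46 genes. It stood at 99.8, 99.4, 99.9 and 99.8, with 209, 38, 102 and 199 fragments, and its peak in Ctrl replicate 1 was at chr13:29985773-29986663. E2f5, a repressor E2F, followed at 95.7, 94.6 and 97.5 in the 3 lists other than Ctrl replicate 2. The atypical repressors E2f7 and E2f8 lay between 82.1 and 90.7 in these lists, and the activator E2f1 between 61.8 and 71.7.

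The other end of this group held E2f2, the lowest of all 46 genes, with a peak at percentile 43.4 in Ctrl replicate 1, of 10 fragments, and none in the other lists. E2f4, the most abundant repressor E2F of many resting cells, stood at 56.3 and 54.0 in Ctrl replicate 1 and cKO replicate 2, and E2f6, an E2F found in a variant PRC1 complex, at 52.1 and 60.7. Both lacked a peak in the other 2 lists. Of the pocket proteins, Rb1 stood at 69.4 and 61.9 in these 2 lists only. Rbl1 stood at 69.1, 60.2 and 54.2 and Rbl2 at 72.6, 76.3 and 66.4 in the 3 longer lists.

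The promoters of E2f3 and E2f2 are shown because they are the highest and the lowest of all 46 genes. E2f3 is at chr13:29986064-29986243 (reverse strand) and E2f2 at chr4:136172094-136172273 (forward strand), and capitals mark the same letters as before.
E2f3: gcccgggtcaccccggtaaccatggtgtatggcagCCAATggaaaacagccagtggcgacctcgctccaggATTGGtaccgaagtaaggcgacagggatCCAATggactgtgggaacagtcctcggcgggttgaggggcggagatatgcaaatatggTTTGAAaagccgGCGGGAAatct
E2f2: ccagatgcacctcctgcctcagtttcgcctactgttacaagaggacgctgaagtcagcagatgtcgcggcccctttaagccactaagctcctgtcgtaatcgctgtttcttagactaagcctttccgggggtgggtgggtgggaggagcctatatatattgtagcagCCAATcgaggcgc
The E2f3 stretch holds 3 CCAAT boxes, 1 CHR match and 1 E2F match close to the start, and its summit lay 146 bp upstream. The E2f2 stretch holds 1 CCAAT box, with 1 E2F match elsewhere in its window, and the single called summit lay 195 bp downstream of the RefSeq start.

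Among the genes of G2 and mitosis the difference between the strongest and the weakest was wide. Aurka, the centrosomal Aurora kinase, stood at 97.2, 92.7, 94.3 and 96.6, with 109, 17, 43 and 101 fragments, and was the only gene of this group with a peak in Ctrl replicate 2. Ccna2 (cyclin A2) stood at 97.6, 93.4 and 97.1 in the 3 longer lists, Top2a (topoisomerase II alpha) at 92.6, 85.0 and 93.9 and Cdc20 (an activator of the anaphase-promoting complex) at 84.8, 77.2 and 86.6. Cdk1, the mitotic kinase, stood at 81.9, 82.2 and 77.5, and Ccnb1 (cyclin B1) at 76.2, 72.0 and 60.4.

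The other 6 genes lacked a peak in both Ctrl replicate 2 and cKO replicate 1. Of these, Bub1 and Bub1b, kinases of the spindle checkpoint, stood at 54.4 and 58.6 and at 58.9 and 63.4 in Ctrl replicate 1 and cKO replicate 2. Plk1, the Polo-like kinase, stood at 60.8 and 54.1, Ccnb2 at 58.9 and 54.2 and Mki67, the gene of the proliferation antigen Ki-67, at 59.6 and 49.5. Aurkb, the kinase of the chromosomal passenger complex, had a peak only in Ctrl replicate 1, at 50.3 with 23 fragments.

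The mean percentile of the 14 genes of licensing and the fork was above that of the 12 mitotic genes in 4 of 4 libraries, at 85.0, 27.5, 78.6 and 84.7 against 72.8, 7.72, 42.0 and 66.0. The E2F and pocket protein genes (73.6, 9.04, 52.4 and 66.0) and the G1 and G1/S genes (72.7, 20.7, 62.0 and 69.5) lay between the other 2 groups or beside the mitotic one. The mean of 30 other mitotic genes was 81.7, 9.51, 69.3 and 81.7, which also lay below that of the genes of licensing and the fork in 4 of 4 libraries. The order did not hold for further genes of replication, since the mean of 45 such genes was 77.1, 10.8, 64.5 and 74.2, below that of the 30 mitotic genes in 3 of 4 libraries. Genes of a group are not replicates, and no test was made over them.

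Aurka and Mki67 are the strongest and the weakest mitotic genes with an entry in the promoter table, at chr2:172370571-172370733 (reverse strand) and chr7:135716380-135716559 (reverse strand).
Aurka: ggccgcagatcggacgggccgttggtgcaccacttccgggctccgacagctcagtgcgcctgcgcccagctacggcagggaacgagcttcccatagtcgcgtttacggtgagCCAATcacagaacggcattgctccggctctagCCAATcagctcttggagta
Mki67: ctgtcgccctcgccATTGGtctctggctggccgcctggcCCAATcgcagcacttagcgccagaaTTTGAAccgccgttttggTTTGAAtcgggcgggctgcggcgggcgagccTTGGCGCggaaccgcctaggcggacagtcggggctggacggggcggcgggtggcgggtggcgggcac
The weaker promoter held more of the letters searched: Mki67 has 2 CCAAT boxes, 2 CHR matches and 1 E2F match in this stretch, and Aurka has 2 CCAAT boxes and no CHR match, with 1 CHR match elsewhere in its window. The summits lay 128 bp and 173 bp upstream of these starts, respectively, in Ctrl replicate 1.

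Motif letters were counted in windows of 300 bases, from 250 before to 50 after the RefSeq start, on both strands. Only 36 of the 46 genes (78.3%) have an entry in the table, under the 80% set as a minimum, so the count over all 46 genes is void. Entries are missing for Mcm4, Gmnn, Ccna2, Aurkb, Ccnd1, Ccnd2, Ccne2, E2f4, E2f5 and Rb1. Of the genes of licensing and the fork 12 of 14 have one (85.7%), and of the mitotic genes 10 of 12 (83.3%). CCAAT was found in 10 of 12 windows of the first group and in 10 of 10 of the second, against 39.0% of 8917 CGI genes with a peak in Ctrl replicate 1 and 37.4% of all 32851 windows of the table. The CHR letters TTTGAA were found in 2 of 12 and in 8 of 10, against 9.89% of the CGI genes and 17.9% of all windows. Since all 10 mitotic windows held CCAAT, the 8 with TTTGAA necessarily held both, a combination found in 4.30% of the CGI genes. The E2F letters were found in 7 of 12 and in 3 of 10, against 19.3% and 9.57%. E2F and CCAAT letters overlapped each other in 1 mitotic window and in none of the first group. A match of letters is a description of the sequence and not a binding site.

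The group means of the number of genes with a promoter peak were 38.5 ± 7.78 in cKO and 27 ± 26.9 in Ctrl (SD, n = 2 each), a difference of 11.5 genes that was smaller than the SD of the Ctrl libraries. The group means of the mean percentile were 66.0 ± 9.08 in cKO and 46.6 ± 42.5 in Ctrl, a difference of 19.3 points, beside 18.6 for CGI genes and 11.6 for all protein-coding genes. Both differences rested on Ctrl replicate 2 and turned round without it, to −7.5 genes and −10.7 points, beside −6.67 points for CGI genes and −4.99 for all protein-coding genes. With mid-ranks in place of 0 for genes without a peak the difference in mean percentile was 5.09. With every list cut to its 7037 strongest peaks, 25, 8, 20 and 22 of the 46 genes kept a promoter peak, beside 42.3%, 13.4%, 34.2% and 37.7% of CGI genes, and the differences were 4.5 genes and 8.68 points. Whether the quality of Ctrl replicate 2 had a part in these differences was not tested, and the 2 Ctrl libraries differed from each other by more than the group means did.

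Of the 46 genes, 5 ranked above both Ctrl libraries in each cKO library (10.9%), namely Ccne1, Ccne2, Gmnn, Mcm2 and Mcm10, against a background of 20.5% of the 13196 genes that had a promoter peak in any list. A single gene, Cdc25a, ranked lower in both (2.17%), against 2.8%. A rank below Ctrl replicate 2 can come from the floor of that list alone, since few genes had a promoter peak there. The share ranked higher was below the background here but not without Ctrl replicate 1, where 67.4% ranked higher, against 55.8%. Without Ctrl replicate 2, 10.9% ranked higher and 50% lower, against 23.8% and 36.6% of the 13196 genes. With 2 libraries against 2 there are 6 assignments, and the smallest p of the exact two-sided permutation test is 0.333, so no gene could pass 0.05. These 6 genes had that exact p of 0.333, with a Benjamini-Hochberg adjusted p of 1 over the 13196 genes, 0 of which had an unadjusted p under 0.05.

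All 5 genes that ranked higher lacked a peak in Ctrl replicate 2, so that their separation rests on a comparison of both cKO libraries with Ctrl replicate 1. Ccne1 had 52 fragments at its summit in Ctrl replicate 1 against 32 and 74 in the cKO libraries, and its percentile differed by 47.5 points between the groups, or by 7.995 without Ctrl replicate 2. Gmnn, which encodes the inhibitor of CDT1, stood at 67.6, 74.0 and 75.2 in these lists, a difference of 40.9, or 7.07 without Ctrl replicate 2. Mcm10, which stabilises the fork, stood at 76.8, 79.0 and 79.6, a difference of 40.9, or 2.51 without that library. Ccne2 differed by 39.5, or 8.04, and Mcm2 by 35.9, or 4.14. With mid-ranks these 5 differences lay between 12.96 and 24.6. In equal-size lists Ccne2, Gmnn and Mcm2 had no promoter peak in any list, so only Ccne1 and Mcm10 were still separated. Their percentiles could not change there, since removing weaker peaks does not move a gene that keeps its peak.

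Cdc25a had percentiles of 87.1 and 91.2 in cKO against 94.6 and 92.3 in Ctrl, a difference of −4.32 points, or −5.45 without Ctrl replicate 2. Its peak in Ctrl replicate 2 had 14 fragments. The floor for a called gene there, 91.7, is above both cKO values, so the order against that library was fixed by this floor. In equal-size lists the difference was also −4.32, but this was fixed in advance. Removing weaker peaks leaves the percentile of a gene that keeps its peak unchanged. By depth over the mean of the genome Ctrl replicate 2 was the lowest of the 4 at Cdc25a, at 4.04 against 60.4 in Ctrl replicate 1 and 14.9 and 42.1 in cKO. When only peaks with a −log10 q of at least 5 were kept, this peak was lost and the difference turned to 41.8. No E2F, pocket protein or mitotic gene was separated in either direction with the main settings. However, E2f3 ranked higher with summits within 1000 bp only, and Aurkb and E2f2 ranked lower with mid-ranks, as did Ccnd2. Aurkb, E2f2 and Ccnd2 had no promoter peak in Ctrl replicate 2. The mid-rank there is set by how many genes were called, so their order against that library rests on the length of the list. Leaving out a library separated more of the E2F, pocket protein and mitotic genes. Aurka and E2f3, among others, ranked higher without Ctrl replicate 1, and Aurka, among others, ranked lower without Ctrl replicate 2.

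Depth over the summits did not separate the groups. Scaled depth, which is the recovered number of fragments at the summit over the mean depth genome-wide, had medians of 27.4, 6.06, 13.0 and 23.5 over the genes with a peak, beside 24.7, 6.06, 11.6 and 21.6 for CGI genes. It was higher in Ctrl replicate 1 than in cKO replicate 2 at 39 of 44 genes (88.6%, beside 80.6% of CGI genes). It was higher in cKO replicate 2 than in cKO replicate 1 at 33 of 33 genes (99.5% of CGI genes), and higher in cKO replicate 1 than in Ctrl replicate 2 at 8 of 8 (99.7% of CGI genes). The 2 cKO libraries thus lay between the 2 Ctrl libraries. At E2f3 the scaled depth was 129, 10.97, 49.2 and 110.2, and at Mcm4 it was 125, 7.22, 43.9 and 99.1. The genes of licensing and the fork had medians of 44.7, 6.64, 13.98 and 35.1, against 19.7, 4.91, 12.1 and 13.3 for the mitotic genes with a peak, of which Ctrl replicate 2 held only Aurka.

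**Figure D3:**
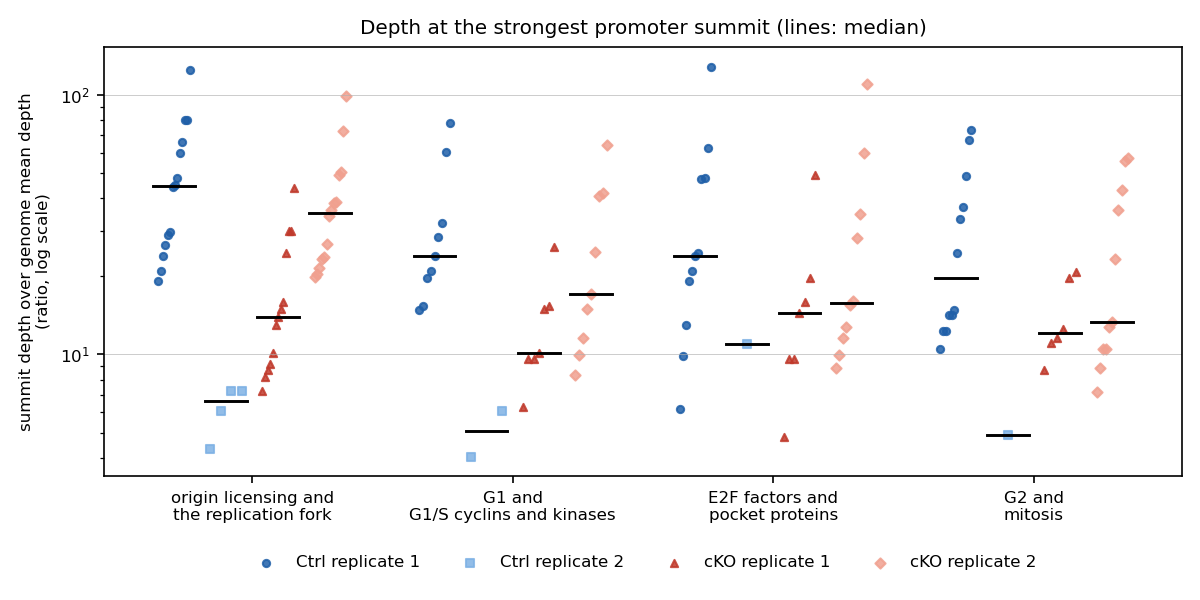
Depth at the strongest promoter summit over the mean depth of the genome (vertical axis, log scale) for each gene with a promoter peak, by role and library; lines are medians. The median of Ctrl replicate 1 is the highest and that of Ctrl replicate 2 the lowest in each role.

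Summits lay close to a TSS. Of the genes with a peak, 43 of 46, 7 of 8, 29 of 33 and 40 of 44 had the strongest summit within 250 bp of a TSS of the gene, beside 81.4%, 76.2%, 82.8% and 80.9% of CGI genes. The median distance was 76.5, 170, 93 and 85.5 bp. A distance above 500 bp from a TSS of the basic set was seen at 3 genes. Ccnd1 had its summits 1744 and 1753 bp upstream of the TSS in Ctrl replicate 1 and cKO replicate 2. Ccnd2 had its strongest summit 1565 bp upstream in Ctrl replicate 1 and 320 bp downstream in cKO replicate 2, each from the nearest TSS of that set, so its 2 percentiles belong to different peaks, with summits 1938 bp apart. The full annotation of Ccnd2 has a transcript outside the basic set that starts farther upstream, at 127152193, closer to the summit in Ctrl replicate 1 at 127152625. In Mcm7 the strongest summit lay 697 and 708 bp downstream in Ctrl replicate 1 and cKO replicate 1, and 191 and 178 bp upstream in Ctrl replicate 2 and cKO replicate 2, and each group held both positions. A RefSeq start of Mcm7 lies at 138171266, 145 bp from the summit in Ctrl replicate 1. The summits of Mcm4 differed by up to 176 bp and those of E2f3 by up to 28 bp between lists.

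**Figure D4:**
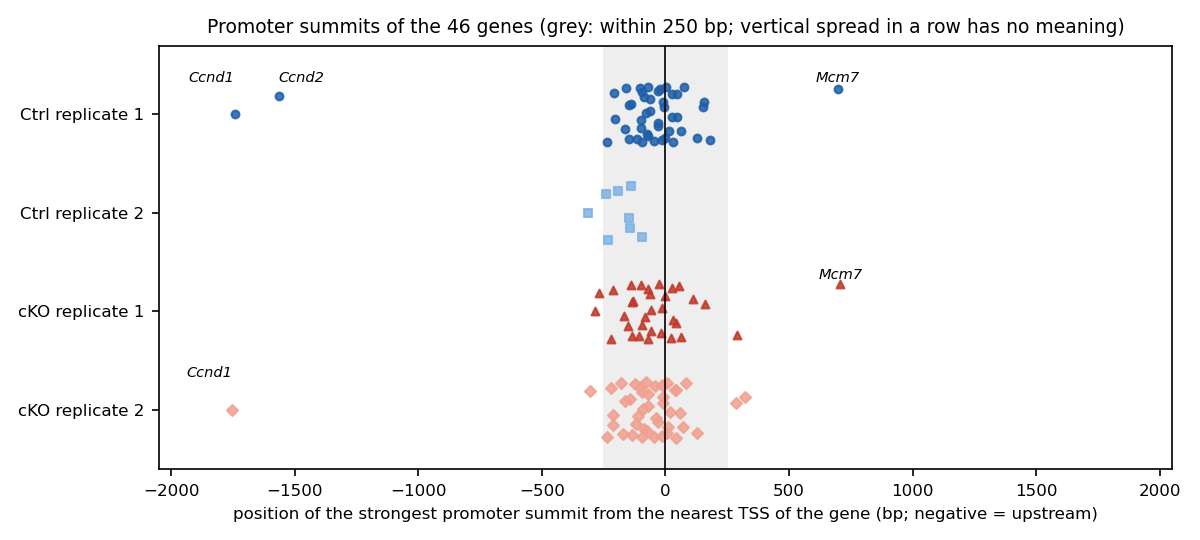
Distance in bp of the strongest promoter summit from the nearest TSS of the same gene (horizontal axis, negative upstream), with 1 point per gene and 1 row per library; genes beyond 500 bp are named. All but 3, 1, 4 and 4 of the 46, 8, 33 and 44 points lie in the grey band within 250 bp.

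At some of these promoters the peak belongs to a pair of genes. A protein-coding TSS on the other strand, pointing away, lay within 1000 bp at 5 of the 46 genes (10.9%), beside 14.3% of CGI genes. The pairs were Orc1 with Prpf38a (118 bp between the TSSs), Mcm7 with Ap4m1 (184 bp), Aurka with Cstf1 (199 bp), Cdc45 with Ufd1 (322 bp) and Mcm4 with Prkdc (489 bp). At Mcm4 the summit lay between both TSSs in 4 of 4 lists, at Cdc45 in 2 of 3, at Mcm7 in 1 of 4, at Orc1 in 0 of 3 and at Aurka in 0 of 4. The summits of Orc1 and Aurka lay farther upstream than the TSS of the partner gene. The peaks at these promoters cannot be assigned to 1 gene of the pair. Mcm4, Mcm7 and Aurka are among the 8 genes with a peak in all 4 lists.

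Distal peaks were few, as they were over all protein-coding genes. Counting peaks with the summit over 2000 bp from any TSS whose nearest protein-coding TSS, within 100000 bp, was that of the gene, the 46 genes had 31, 3, 13 and 35. These were 0.674, 0.0652, 0.283 and 0.761 per gene. CGI genes had 1.07, 0.125, 0.361 and 1.01, and all protein-coding genes 0.883, 0.134, 0.32 and 0.839. No such peak was found for 29, 44, 37 and 29 of the 46 genes (63.0%, 95.7%, 80.4% and 63.0%). The shares were 54.96%, 89.6%, 76.7% and 56.5% of CGI genes and 60.7%, 88.9%, 78.6% and 61.7% of all protein-coding genes. Over the 4 lists 20 genes had at least 1.

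The D cyclins and their kinase Cdk6 held many of them. Cdk6 had 6, 2, 4 and 5 distal peaks, of which 5, 2, 4 and 5 lay within the gene. Its strongest distal summit was at the same place in 3 lists, 60914, 60958 and 60903 bp downstream of the nearest TSS in Ctrl replicate 1, cKO replicate 1 and cKO replicate 2, where the peak in Ctrl replicate 1 was chr5:3404826-3405624. The peak there had 66, 26 and 67 fragments, against 24, 13 and 21 at the promoter. The strongest one in Ctrl replicate 2 lay elsewhere, and 84.4% of its bases are soft-masked repeats. Ccnd2 had 3, 0, 2 and 3 distal peaks, Ccnd1 3, 0, 0 and 2, and Ccnd3 1, 0, 1 and 2.

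Ccne1 had 1 distal peak in each list but Ctrl replicate 2, about the same distance downstream of its TSS and outside the gene (22464, 22465 and 22451 bp). It had 96, 44 and 87 fragments, more than the promoter in each list. Aurkb, whose promoter was called only in Ctrl replicate 1, had a distal peak 4592 bp upstream with 63 fragments in that list, and the peaks 4595 and 4586 bp upstream in cKO replicate 1 and cKO replicate 2 had 24 and 44. Mki67 had one 86543 bp upstream with 37 fragments in Ctrl replicate 1, near those with 20 and 44 fragments in cKO replicate 1 and cKO replicate 2. Of the 14 genes of licensing and the fork, Mcm3 had 1 distal peak in each list but Ctrl replicate 2. Mcm5 had 2 each in Ctrl replicate 1 and cKO replicate 2 and none in cKO replicate 1. Mcm10 had 1 of 14 fragments in Ctrl replicate 2 alone. The nearest TSS was used for the assignment, and contact with the promoter was not measured.

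**Figure D5:**
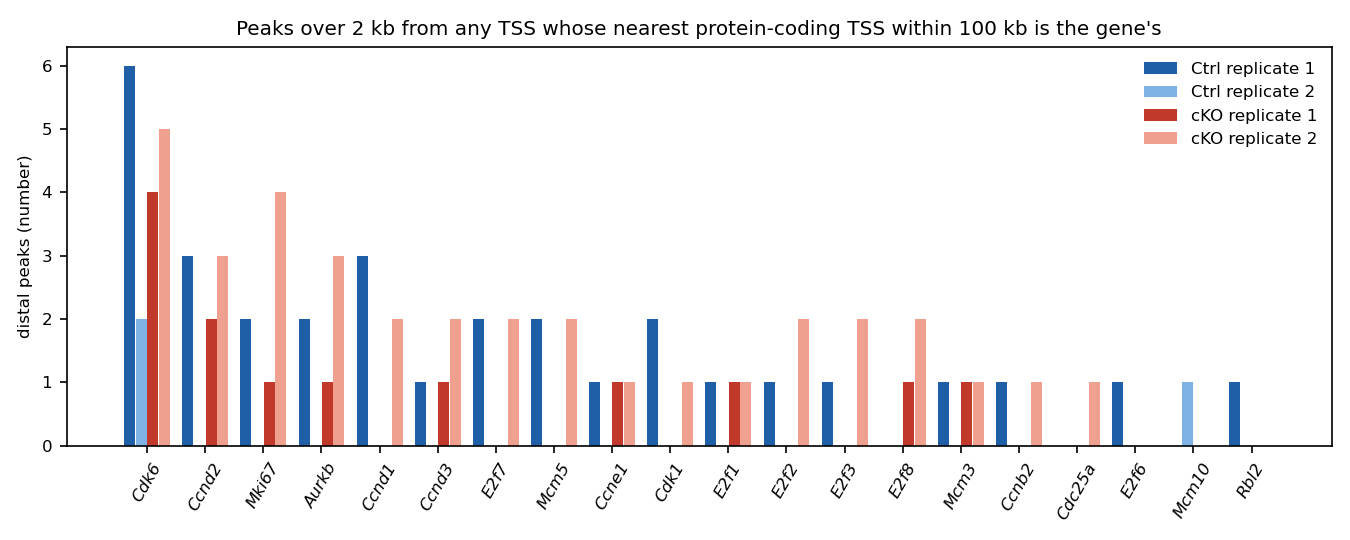
Number of distal peaks (vertical axis) assigned to each of the 20 genes with at least 1, by library. Cdk6 has the most, with 6, 2, 4 and 5 in Ctrl replicate 1, Ctrl replicate 2, cKO replicate 1 and cKO replicate 2.

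Other genes of the cycle were measured in the same way. Of 100 further genes, 45 of replication, 30 of mitosis and 25 regulators of the cycle, 99, 14, 84 and 98 had a promoter peak. Their mean percentile was 78.9, 13.6, 68.7 and 77.5. Of those with a peak, 68.7% (exact 95% interval 58.6% to 77.6%), 71.4% (41.9% to 91.6%), 57.1% (45.9% to 67.9%) and 70.4% (60.3% to 79.2%) ranked above the median of genes with a peak, so that the intervals lay above 50% in Ctrl replicate 1 and cKO replicate 2, where those of the 46 genes held 50%. CGI genes stood at 53.5% in Ctrl replicate 1 and 52.9% in cKO replicate 2. Genes are not replicates and the intervals cover counting error only. The difference between the 46 and the 100 genes was not tested. In all, 17 of the 100 ranked above both Ctrl libraries in each cKO library, beside the background of 20.5%, and 1, Atm, ranked lower, beside 2.8%.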

How the data were processed

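ATAC-seq of P0 hippocampi gave 1 deposited peak list for each of 2 cKO and 2 Ctrl libraries, grouped by sample titles. Per the study's methods and the submitters' processing notes, the authors used cutadapt for trimming and Bowtie2 for alignment (mm10), dropped blacklisted, mitochondrial and duplicate reads (SAMtools, Picard), corrected the Tn5 offset and ran MACS2 2.2.7.1 on each library by itself with no control. Lists called separately have separate thresholds, so peaks missing from a list are not shown to be closed. The deposited columns hold a display score, which was not used, fold enrichment over local background (a ratio), −log10 p-value, −log10 q-value and the summit offset. The lowest −log10 q-value in the authors' lists was 1.31.

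Promoters were 2000 bp on either side of TSSs of the GENCODE M21 basic set, and genes were ranked by −log10 p. Fragments at a summit were recovered from fold and p, since MACS2 adds 1 to both depths and uses a Poisson test. A whole number fitted within 0.01 for at least 99.36% of peaks in each list. Total fragments were estimated from the lowest background depth, the shortest peak and the mouse genome size set in MACS2, and were not checked against reads. Scripts (Python 3.11.15, numpy 2.4.6, pandas 2.3.3, scipy 1.17.1, matplotlib 3.10.9) were tested on simulated data. Single genes were compared by an exact two-sided permutation test over libraries, adjusted by Benjamini-Hochberg. Genes named with values were the 2 highest and 2 lowest of each role, all with a peak in Ctrl replicate 2, all lacking a peak in at least 2 lists, all separated between the groups and all with summits over 500 bp apart. Others were named by their range or chosen after their values were seen, as were Atm, the E2f3 and E2f2 sequences and the distal peaks described. The genes and lists were chosen with earlier results of these data known. Alternatives were other promoter widths, any overlap, stricter peaks, equal-size lists, ranking by fold, no repeat-masked peaks, mid-ranks, a CGI scale, a replicate block and leaving out each library. Intervals are exact binomial and cover counting error only.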

Additional observations from a re-analysis of the deposited data

How the results depend on the processing

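Summits within 1 kb or 500 bp, any overlap, ranking by fold and leaving out repeat-masked peaks changed no direction and moved no count of separated genes by over 1.5 times. Leaving out each library in turn moved the difference in genes with a promoter peak between −7.5 and 30.5 and that in mean percentile between −10.7 and 49.4, both negative only without Ctrl replicate 2. The number of genes higher in both cKO libraries moved between 5 and 31 (31 without Ctrl replicate 1, or 67.4%, against 55.8% of all 13196 genes), and the number lower between 1 and 23 (23 without Ctrl replicate 2, or 50%, against 36.6%). Equal-size lists left 2 genes higher (4.35%, against 17.6%) and cut the differences to 4.5 genes and 8.68 points, and a −log10 q of at least 5 left 0 lower and turned Cdc25a to 41.8, since its peak in Ctrl replicate 2 was lost. Mid-ranks for genes without a peak gave 4 lower (8.7%, against 10.4%) and cut the difference in mean percentile to 5.09. Aurkb, Ccnd2 and E2f2, among those lower, had no promoter peak in Ctrl replicate 2. The percentages above the median stayed within their binomial intervals under all alternatives run, which for Ctrl replicate 2 is a wide one: 37.5% of 8 genes became 75% of 4 with a −log10 q of at least 5. Under the replicate block, in which libraries with the same number were paired, 12 of the 46 genes were higher in both pairs (26.1%, against 32.2% of all 13196 genes) and 1 was lower (2.17%, against 4.3%). The correlation of deviations between same-numbered libraries was 0.053 over 13196 genes. This value cannot decide whether the numbers pair the samples, since Ctrl replicate 2 stands at percentile 0 for most of these genes. Ctrl replicate 2, with 7037 peaks, limits every comparison of the groups.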
